A study of Mus musculus with 9 samples.

Results

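The 10 genes described here carry out fatty acid synthesis, desaturation and elongation: Acly, Acaca, Fasn and Acss2 on the synthesis side, the desaturases Scd1, Scd2, Fads1 and Fads2, and the elongases Elovl5 and Elovl6. They were chosen by name, as a pathway, with earlier results of these data known, and every probe set annotated to them was read. They are 10 of the 18194 genes on the array, with 28 of its 45101 probe sets.

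Cumulus cells, the granulosa cells that enclose the oocyte in an antral follicle, were compared between 3 genotypes with 3 arrays each. DM females were Bmp15-/-Gdf9+/-, so they lacked the oocyte-secreted growth factor BMP15 and kept 1 intact copy of the gene for a second one, GDF9. Bmp15-/- females lacked BMP15 alone, and wildtype females carried both genes intact. Neither mutant group had any intact Bmp15, so a DM against Bmp15-/- comparison concerns the Gdf9 copy in animals already without BMP15. All females were 4 to 5 months old, of mixed B6/129 background, and had received 5 IU of eCG, a gonadotropin that stimulates follicle growth, 48 hours earlier. Each sample pooled the cumulus cells of 75 to 100 complexes from 3 to 4 mice, collected with 5 µM milrinone, which holds oocytes in meiotic arrest. A sample is therefore a pool rather than 1 animal. From each, 10 ng of RNA was amplified in 2 rounds.

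Cells make fatty acids from acetyl-CoA in the cytosol. ATP citrate lyase (Acly) frees acetyl-CoA from citrate, acetyl-CoA synthetase 2 (Acss2) makes it from acetate, acetyl-CoA carboxylase (Acaca) turns it into malonyl-CoA, and fatty acid synthase (Fasn) builds palmitate from both. Stearoyl-CoA desaturases (Scd1, Scd2) put the delta-9 double bond into saturated chains, the delta-5 and delta-6 desaturases (Fads1, Fads2) act on polyunsaturated chains, and Elovl6 and Elovl5 lengthen saturated or monounsaturated and polyunsaturated chains. Genes of all these steps are known targets of the SREBP transcription factors.

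The values are log2 expression values per probe set, summarised with RMA. They ran from 2.87 to 14.53, with array medians between 5.52 and 5.59. A pair of libraries stood apart in the targeted genes. In the 2 Bmp15 probe sets that respond to the genotype, the mutant arrays read 3.45 to 3.67 and 5.05 to 5.10, and wildtype array 1 lay with them or close to them at 3.97 and 5.10, while wildtype arrays 2 and 3 read 9.34 and 7.97, and 9.58 and 8.41. Bmp15-/- array 2 had the highest Gdf9 value among the mutant arrays, 6.59. Both are oocyte transcripts, and the summed level of the 16 oocyte markers, of which 7 to 13 lay above the 40th percentile of an array, overlapped between genotypes. These markers summed to log2 9.31 to 9.84 on DM arrays, 9.48 to 10.99 on Bmp15-/- arrays and 9.73 to 11.06 on wildtype arrays. Wildtype array 2 and Bmp15-/- array 2 had the highest sums, 11.06 and 10.99. Wildtype array 1 had the lowest wildtype sum, 9.73, and the lowest wildtype Gdf9 value, 5.03. All 9 granulosa and cumulus markers on the array lay above that percentile of every array, and summed to 13.77 to 14.14 in DM, 14.12 to 14.14 in Bmp15-/- and 14.20 to 14.24 in wildtype. In DM against wildtype 3 of these 9 fell (Foxl2, Inhba and Nr5a1) and 2 rose (Amhr2 and Slc38a3), so markers of the cumulus cells themselves also moved with genotype. Of all genes tested, 28.1% were called in that comparison. Of 5 markers of adipocytes, the cells best known for these enzymes, at most 1 lay above that percentile of an array, Adipoq and Lep were too dim to test, and the summed level was 6.91 to 7.04 in DM, 6.98 to 7.20 in Bmp15-/- and 6.78 to 7.31 in wildtype. Theca and stroma markers, of which 4 or 5 of 8 lay above that percentile, summed to 9.69 to 10.15 in DM, 9.23 to 9.34 in Bmp15-/- and 8.58 to 8.96 in wildtype, with 3 of the 4 tested higher in DM than in wildtype in limma (Acta2 by 2.09, Pdgfra by 1.57 and Col1a1 by 0.54) and Cyp17a1, which defines theca, too dim to test. Col1a2, Dcn and Lum were also too dim to test. The medians of the 8 markers overlapped, at 5.04 to 5.35 in DM, 4.94 to 5.17 in Bmp15-/- and 4.96 to 5.28 in wildtype. Surface epithelium markers, 4 of 7 above the percentile, summed to 9.92 to 9.97, 9.75 to 10.09 and 9.33 to 9.49 in DM, Bmp15-/- and wildtype. Their medians overlapped, at 5.86 to 6.22, 6.01 to 6.12 and 5.78 to 6.23. Erythroid markers, at most 1 of 2 above the percentile, summed to 5.52 to 5.86, 5.66 to 6.60 and 7.41 to 8.22, which followed Alas2. The other, Hba-a1, was too dim to test and went the other way, at 4.04 to 4.20, 4.10 to 4.22 and 3.84 to 4.01. Fewer cells of a type and less RNA per cell cannot be told apart in such pooled RNA. The difference between the 3' and 5' Gapdh probe sets, a sign of RNA integrity and amplification, was 0.79 to 0.95 in DM, 0.66 to 0.73 in Bmp15-/- and 0.52 to 0.59 in wildtype, so it also moved with genotype. For beta-actin the groups overlapped, at 1.85 to 2.12, 1.85 to 1.92 and 1.87 to 1.90 in DM, Bmp15-/- and wildtype arrays. The part of these shifts in the results below was not tested.

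In the cumulus cells of DM mice 5 of the 10 genes fell against wildtype, namely Scd1, Fads2, Acss2, Fads1 and Acly. None rose in limma, and none was higher at an unadjusted p under 0.05. Scd1 fell most, 12.7-fold, while Fasn, Acaca, Scd2, Elovl5 and Elovl6 did not pass the test at their brightest probe set. In Bmp15-/- mice Scd1, Acss2, Fads2 and Fads1, 4 of the 10, fell by smaller amounts. DM fell below Bmp15-/- for Scd1 and Fads2. All changes were tested with limma over the 13447 genes bright enough to test, where a gene was called at a Benjamini-Hochberg adjusted p under 0.05, and all 10 members were among them. Of all genes tested, 28.1% were called in DM against wildtype (18.2% lower, 9.95% higher) and 9.07% in Bmp15-/- against wildtype (5.78% lower, 3.29% higher). Between the mutants 3.25% were called in DM against Bmp15-/- (1.61% lower, 1.64% higher). The members' counts of 5, 4 and 2 of 10 stand against these shares. The groups did not overlap, with all 3 arrays lower, for 7, 6 and 3 members, against 27.4%, 23.4% and 12.5% of all genes in the same order of comparisons. Median log2 changes of the members were -0.26, -0.19 and -0.18, against -0.06, -0.04 and -0.03 over all genes. The first 2 comparisons share the wildtype arrays.

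**Figure D1:**
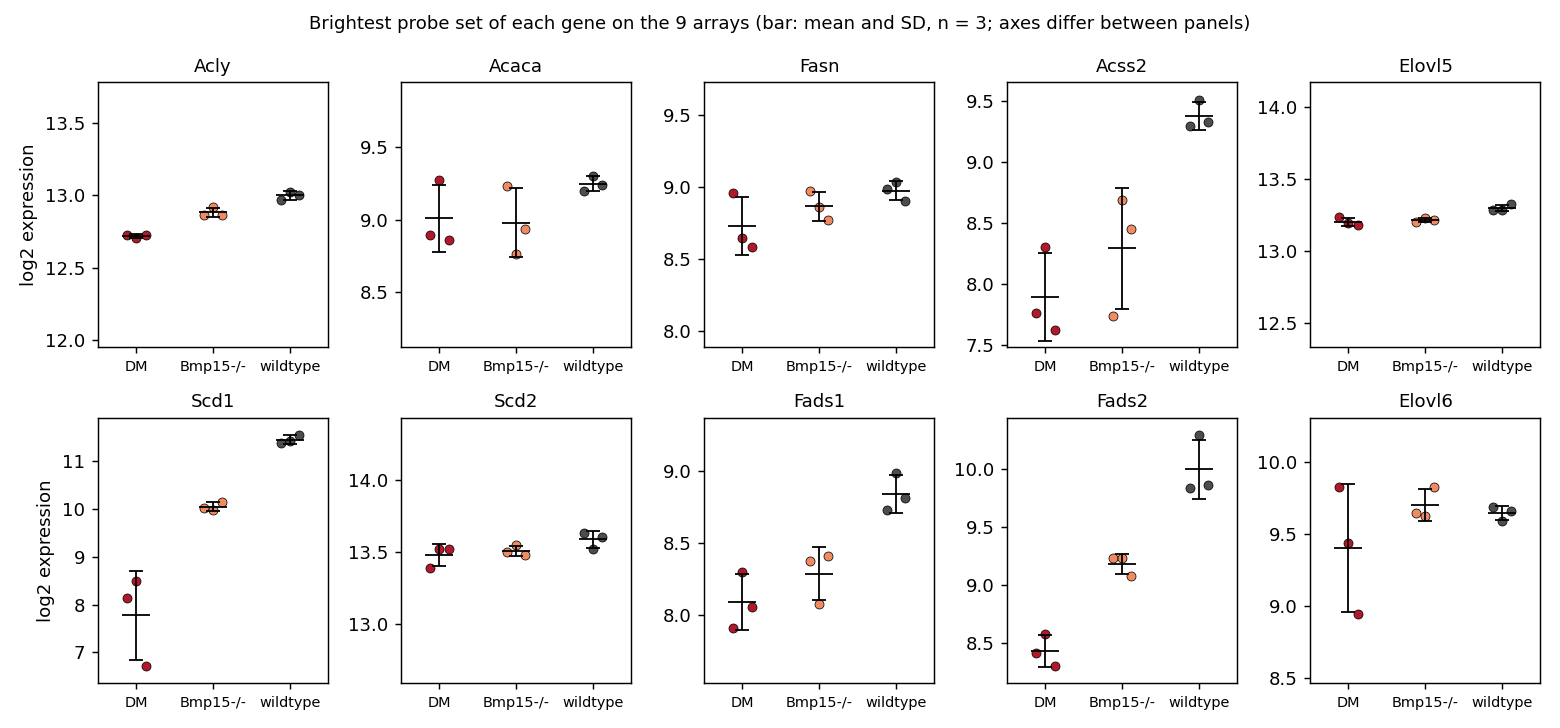
Log2 expression of the brightest probe set of each of the 10 genes (y axis, a separate scale per panel) on the 3 DM, 3 Bmp15-/- and 3 wildtype arrays (x axis); points are arrays, and bars are the mean and SD. Scd1 lies between 6.72 and 8.48 in DM, between 9.98 and 10.15 in Bmp15-/- and between 11.38 and 11.55 in wildtype, while the groups overlap for Acaca, Fasn and Elovl6.

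Among the 4 synthesis genes, Acss2 showed the widest separation. Its brightest probe set had log2 values of 7.76, 8.31 and 7.62 in DM, 7.74, 8.69 and 8.45 in Bmp15-/- and 9.29, 9.51 and 9.33 in wildtype, in the order of arrays 1 to 3. Every mutant array lay below every wildtype array, and the mutant genotypes overlapped each other. Acss2 fell in DM by 1.48 ± 0.24 on the log2 scale (SE, n = 3 per group), 2.79-fold with a 95% interval of 1.91 to 4.08 (adjusted p = 0.00235). It fell in Bmp15-/- by 1.08 ± 0.24, or 2.12-fold (adjusted p = 0.0270), a call that did not survive leaving out any 1 wildtype array or Bmp15-/- array 3. Without wildtype array 1, where Bmp15 was low, the change was -1.12 (adjusted p = 0.0700), and over the arrays left out in turn the adjusted p ran from 0.0270 to 0.0940. DM and Bmp15-/- differed by -0.40, with an interval of -0.94 to 0.15 (adjusted p = 0.411).

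A second, dimmer Acss2 probe set read 4.65, 4.84 and 4.75 in DM, 5.20, 4.93 and 5.16 in Bmp15-/- and 6.13, 6.68 and 6.49 in wildtype, so no array of 1 group overlapped another group. It passed the dim filter through wildtype and 2 Bmp15-/- arrays, and all 3 DM arrays lay below the 40th percentile, so its values are given as a description. A further probe set lay near the filter, with differences from wildtype of -0.35 in DM and -0.34 in Bmp15-/- that were not called in the fit over all 27991 testable probe sets, and the last one, shared with another gene, was too dim to test.

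Acly, which supplies most cytosolic acetyl-CoA, fell in DM by a small amount that was even across arrays. Its brightest probe set read 12.73, 12.71 and 12.72 in DM, 12.86, 12.92 and 12.87 in Bmp15-/- and 12.97, 13.02 and 13.01 in wildtype. The 3 genotypes did not overlap, in the order DM, Bmp15-/-, wildtype. The change in DM was -0.28 ± 0.07 against wildtype, or 1.22-fold (adjusted p = 0.0166), and it was not called without wildtype array 2 (adjusted p = 0.0568) or wildtype array 3 (adjusted p = 0.0533). In Bmp15-/- the difference was -0.12, with an interval of -0.28 to 0.04. Acly probe sets that were less bright differed more: one with a DM mean of 11.72 and a wildtype mean of 12.17 fell by 0.45 (adjusted p = 0.00316), and one with a DM mean of 6.58 and a wildtype mean of 7.37 fell by 0.79 (adjusted p = 0.00203). A probe set with means of 5.54 in DM and 5.50 in wildtype was not called, and 2 others were too dim to test.

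Fasn and Acaca, the enzymes that commit carbon to palmitate, did not pass the test in any of the 3 comparisons. Fasn, measured by 1 probe set, read 8.96, 8.65 and 8.58 in DM, 8.97, 8.86 and 8.77 in Bmp15-/- and 8.99, 9.03 and 8.90 in wildtype. DM array 1 lay with the wildtype arrays, and DM arrays 2 and 3 below all others. The difference between DM and wildtype was -0.24, with an interval of -0.50 to 0.01 (adjusted p = 0.134), and without DM array 1 it became -0.36 and was called (adjusted p = 0.0318). Over these intervals a Fasn decrease of up to 1.41-fold in DM and 1.28-fold in Bmp15-/- remained possible.

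Acaca read 8.89, 9.27 and 8.86 in DM, 9.24, 8.76 and 8.94 in Bmp15-/- and 9.20, 9.30 and 9.24 in wildtype. One array of each mutant genotype lay among the wildtype arrays and the other 2 below them. The differences from wildtype were -0.24 in DM (interval -0.56 to 0.08, adjusted p = 0.243) and -0.27 in Bmp15-/- (interval -0.59 to 0.05, adjusted p = 0.265). Its other probe set was too dim to test.

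To set the start regions of a synthesis gene that fell, a synthesis gene that was not called and a desaturase that fell side by side, their promoter windows are shown, 250 bases before to 50 after the annotated start (RefSeq, GRCm38.p6), 5′ to 3′ in the direction of transcription. Capitals mark the CCAAT box (CCAAT, or ATTGG on the other strand) and the GC box (GGGCGG, or CCGCCC on the other strand).
Acss2, chr2:155517793-155518092, plus strand: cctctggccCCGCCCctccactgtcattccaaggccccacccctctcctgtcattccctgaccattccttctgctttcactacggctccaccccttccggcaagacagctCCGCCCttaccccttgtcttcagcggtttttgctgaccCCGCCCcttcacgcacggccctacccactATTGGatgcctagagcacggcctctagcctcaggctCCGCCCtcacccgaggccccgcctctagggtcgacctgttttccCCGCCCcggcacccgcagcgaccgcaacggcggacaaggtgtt
Fasn, chr11:120824498-120824797, minus strand: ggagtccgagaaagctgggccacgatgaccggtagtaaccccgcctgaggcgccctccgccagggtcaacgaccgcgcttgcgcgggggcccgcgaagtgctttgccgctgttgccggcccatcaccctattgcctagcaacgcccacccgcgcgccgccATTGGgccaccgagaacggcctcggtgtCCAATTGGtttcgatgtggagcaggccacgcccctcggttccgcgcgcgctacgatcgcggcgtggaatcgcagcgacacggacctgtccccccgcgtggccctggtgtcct
Fads2, chr19:10101454-10101753, minus strand: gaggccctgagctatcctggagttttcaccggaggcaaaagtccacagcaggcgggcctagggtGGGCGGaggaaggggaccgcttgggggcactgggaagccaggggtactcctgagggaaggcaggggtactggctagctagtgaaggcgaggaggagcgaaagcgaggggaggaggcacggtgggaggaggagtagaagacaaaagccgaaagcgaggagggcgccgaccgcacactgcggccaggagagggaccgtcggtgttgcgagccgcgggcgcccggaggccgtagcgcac
The Acss2 window held 5 GC boxes and 1 CCAAT box, whose first base lies 73 bases before the start. Fasn had 3 matches to the CCAAT box and no GC box. The outermost begins 90 bases before the start, and the others, 62 and 59 bases before it, overlap each other on opposite strands. In Fads2 a single GC box begins 186 bases before the start, and no CCAAT box was found. Windows were at hand for 7 of the 10 genes. CCAAT boxes were in 4 of them (Acss2, Fasn, Acly and Elovl5) and in 37.4% of all 32851 windows, and GC boxes in 3 of them (Acss2, Acly and Fads2) and in 35.7% of all windows. The E-box CACGTG was in 1 of the 7, Elovl5, and in 7.15% of all windows, and the letters TCACNCCAC of a sterol regulatory element were in none of the 7 and in 1.24% of all windows, both strands searched. Genes that fell and genes that were not called both had such matches, which are descriptions of the letters only.

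The desaturases held the largest changes. Scd1, whose enzyme makes oleate from stearate, had log2 values of 8.13, 8.48 and 6.72 in DM, 10.02, 9.98 and 10.15 in Bmp15-/- and 11.38, 11.43 and 11.55 in wildtype. The 3 genotypes were far apart, with DM array 3 lowest of all and the DM arrays much more spread than the others. Scd1 fell in DM by 3.67 ± 0.36 against wildtype, 12.7-fold with an interval of 7.27 to 22.3 (adjusted p = 0.000173). By size of decrease it had rank 3 among the 13447 genes. The change without DM array 3 was -3.14 (adjusted p = 1.78e-05).

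Against Bmp15-/-, the Scd1 change in DM was -2.27 ± 0.36, or 4.82-fold (adjusted p = 0.0139), the decrease with rank 2 among all genes tested. This call was lost without Bmp15-/- array 1 (adjusted p = 0.0537) or Bmp15-/- array 2 (adjusted p = 0.0521), with changes of -2.28 and -2.31. Bmp15-/- itself fell against wildtype by 1.40 ± 0.36, or 2.64-fold with an interval of 1.51 to 4.62 (adjusted p = 0.0422). That call was lost without any 1 of the 6 arrays compared, at adjusted p between 0.0895 and 0.119 and changes of -1.45 to -1.35, and wildtype array 1 and Bmp15-/- array 2 gave 0.104 and 0.109. In the probe-set fit, whose number of tests is larger, it was also not called (adjusted p = 0.0557). The fit shares 1 spread over the 3 groups, and the SD was 0.932 in DM, 0.0912 in Bmp15-/- and 0.0892 in wildtype. Over 18 alternatives the limma adjusted p of this Bmp15-/- change ran from 0.000456 to 0.119. The second Scd1 probe set was too dim to test, at 3.51 to 3.71 in DM, 3.81 to 3.82 in Bmp15-/- and 4.06 to 4.24 in wildtype.

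Fads2, the delta-6 desaturase, read 8.41, 8.58 and 8.31 in DM, 9.23, 9.23 and 9.08 in Bmp15-/- and 9.83, 10.29 and 9.86 in wildtype. No 2 genotypes overlapped. Fads2 fell in DM by 1.56 ± 0.13 against wildtype, 2.95-fold with an interval of 2.40 to 3.63 (adjusted p = 0.000101). In Bmp15-/- it fell by 0.82 ± 0.13, or 1.76-fold (adjusted p = 0.00761), and stayed called without any 1 of the 6 arrays, at adjusted p between 0.0183 and 0.0366. DM was below Bmp15-/- by 0.75 ± 0.13 on the log2 scale, or 1.68-fold (adjusted p = 0.0223), a call lost without Bmp15-/- array 1 (adjusted p = 0.0758), Bmp15-/- array 2 (0.0893), DM array 1 (0.0584) or DM array 3 (0.0587). All 3 Fads2 probe sets fell in both mutants: the other 2 by 1.50 and 0.79 in DM and by 0.68 and 0.51 in Bmp15-/-, with adjusted p between 0.000549 and 0.0445.

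Fads1, the delta-5 desaturase encoded next to Fads2 in the same family, read 7.91, 8.30 and 8.06 in DM, 8.37, 8.07 and 8.41 in Bmp15-/- and 8.73, 8.98 and 8.81 in wildtype. All mutant arrays lay below all wildtype arrays, and the mutants overlapped. Fads1 fell in DM by 0.75 ± 0.13, or 1.68-fold (adjusted p = 0.00309), and in Bmp15-/- by 0.56 ± 0.13, or 1.47-fold (adjusted p = 0.0320). The Bmp15-/- call was lost without any 1 of the 6 arrays, at adjusted p between 0.0541 and 0.112, with wildtype array 1 left out at 0.0617 and Bmp15-/- array 2 at 0.0967. A dimmer Fads1 probe set read 5.80, 5.56 and 5.72 in DM, 5.08, 5.34 and 5.47 in Bmp15-/- and 5.26, 5.80 and 6.34 in wildtype. Its DM arrays overlapped the wildtype arrays and lay above the Bmp15-/- arrays, and it was called in no comparison, with a DM difference of -0.11 (interval -0.64 to 0.43).

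Scd2, the delta-9 desaturase expressed in most mouse tissues, gave different answers at different probe sets. The brightest one read 13.39, 13.52 and 13.52 in DM, 13.50, 13.55 and 13.48 in Bmp15-/- and 13.64, 13.53 and 13.61 in wildtype. The DM arrays lay just below the wildtype arrays and the Bmp15-/- arrays overlapped both, and the DM difference of -0.11 was not called (interval -0.29 to 0.07, adjusted p = 0.323). The brightest probe set stood above 99.7% of all probe sets, near the top of the array's range.

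The other 2 Scd2 probe sets were lower in the mutants. One read 12.47, 12.36 and 12.44 in DM, 12.84, 12.94 and 12.66 in Bmp15-/- and 13.11, 13.20 and 13.13 in wildtype, and the other 10.72, 10.84 and 10.57 in DM, 11.37, 11.32 and 10.75 in Bmp15-/- and 11.68, 11.99 and 11.68 in wildtype. Both separated the DM arrays from the wildtype arrays. They fell in DM by 0.72 (adjusted p = 0.00109) and 1.07 (adjusted p = 0.00285), while in Bmp15-/- their differences of -0.33 and -0.64 were not called (adjusted p = 0.0677 and 0.0600). Had Scd2 been given by the mean of its probe sets, it would have fallen by 0.64 in DM (adjusted p = 0.000979) and by 0.35 in Bmp15-/- (adjusted p = 0.0417).

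**Figure D2:**
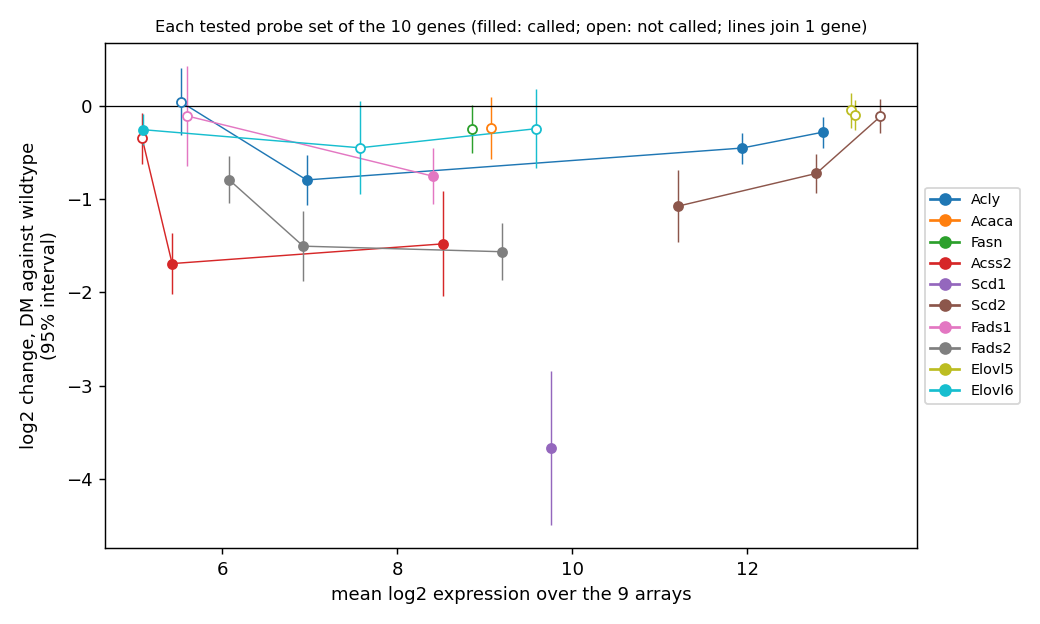
Log2 change in DM against wildtype (y axis, with its 95% interval) of each of the 23 tested probe sets of the 10 genes, against its mean log2 expression over the 9 arrays (x axis); filled points were called, open points were not, and lines join the probe sets of 1 gene. The 13 called probe sets all lie below 0. From the brightest to the dimmest, the change within Scd2 grows, at -0.11, -0.72 and -1.07. It shrinks within Fads2, at -1.56, -1.50 and -0.79, and within Fads1, at -0.75 and -0.11.

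Neither elongase was called by limma at its brightest probe set in any comparison, and neither had an unadjusted p under 0.05. Elovl5, which lengthens polyunsaturated chains, read 13.24, 13.19 and 13.18 in DM, 13.20, 13.23 and 13.22 in Bmp15-/- and 13.29, 13.29 and 13.32 in wildtype. Mutant arrays lay below the wildtype arrays by differences of -0.10 in DM (interval -0.25 to 0.06) and -0.08 in Bmp15-/- (interval -0.24 to 0.08). A second probe set of similar brightness also was not called. Its DM arrays overlapped the wildtype arrays (difference -0.05), and its Bmp15-/- arrays lay below them (difference -0.10). Like Scd2, both Elovl5 probe sets stand near the top of the array's range.

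Elovl6, which lengthens palmitate to stearate, read 9.83, 9.44 and 8.95 in DM, 9.65, 9.63 and 9.83 in Bmp15-/- and 9.69, 9.59 and 9.66 in wildtype. The DM arrays were widely spread, with array 1 above every wildtype array and arrays 2 and 3 below, and a second probe set repeated this with 7.84, 7.03 and 6.84 in DM against 7.66, 7.66 and 7.74 in wildtype. The difference in DM was -0.24 (interval -0.66 to 0.17, adjusted p = 0.358), and the interval reached a decrease of 1.58-fold. In Bmp15-/- it was 0.05 (interval -0.36 to 0.47). A dim Elovl6 probe set read 4.96, 4.95 and 4.93 in DM and 5.23, 5.23 and 5.14 in wildtype. All 3 DM arrays lay below the 40th percentile and it passed the filter through the other groups, so these values are a description.

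Counted by probe set, 23 of the 28 could be tested and 5 were too dim. In DM against wildtype 13 of the 23 fell, in Bmp15-/- against wildtype 6 fell, and in DM against Bmp15-/- 3 fell, with none higher. Of those called in DM against wildtype, 2 (the second Acss2 and the dim Elovl6 probe set) had no DM array above the dim filter's percentile. Of all probe sets tested, 24.2%, 6.33% and 1.93% were called in the same comparisons, 16.2%, 4.28% and 0.922% of all being called lower and 8.09%, 2.05% and 1.01% higher. Without wildtype array 1, 11, 2 and 1 member probe sets were called, and without Bmp15-/- array 2, 12, 3 and 0. By gene, leaving out wildtype array 1 gave 5, 1 and 2 members called, and leaving out Bmp15-/- array 2 gave 5, 2 and 0. Scd1, Acss2, Fads1 and Fads2 remained called in DM against wildtype without any 1 array.

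**Figure D3:**
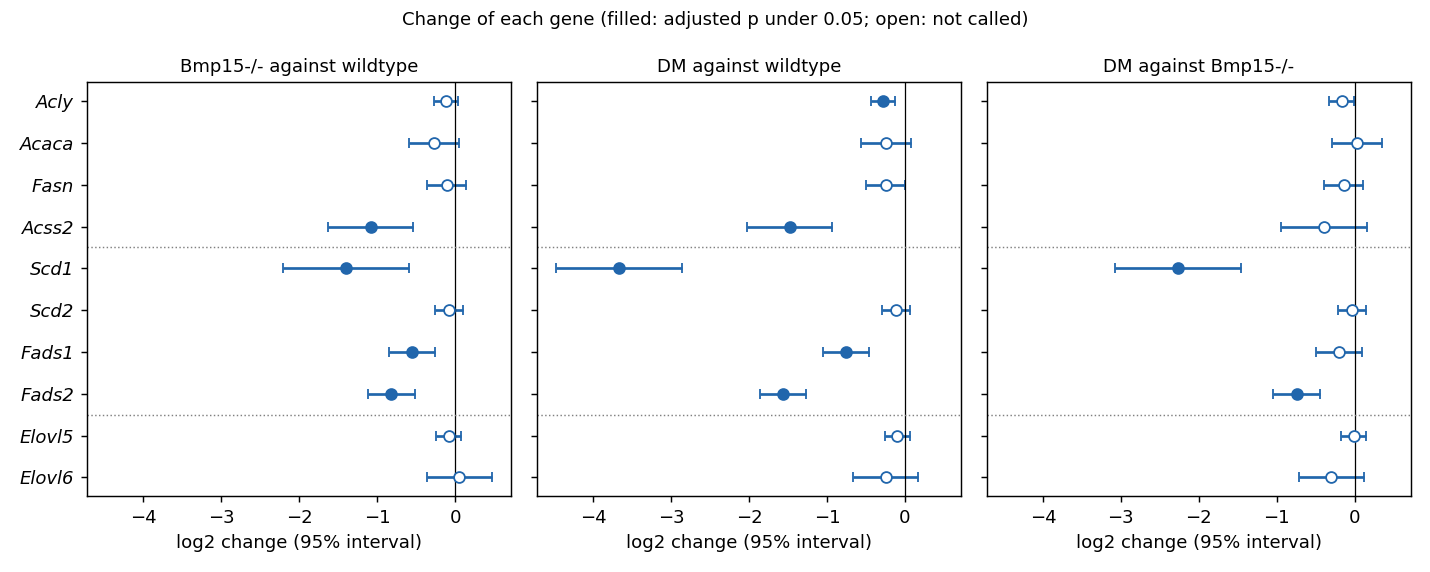
Log2 change of each gene at its brightest probe set (x axis, points with 95% intervals); panels run, left to right, Bmp15-/- over wildtype, DM over wildtype and DM over Bmp15-/-. Dotted lines separate synthesis genes, desaturases and elongases, and filled points were called. Scd1 stands out at -3.67 in DM against wildtype, with Fads2 at -1.56 and Acss2 at -1.48.

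Set side by side, the synthesis genes and the genes that modify finished chains both held members that fell and members that were not called. In DM against wildtype 2 of 4 synthesis genes and 3 of 6 desaturases and elongases fell, with medians of -0.26 and -0.50. In Bmp15-/- against wildtype it was 1 of 4 and 3 of 6, with medians of -0.19 and -0.32. DM against Bmp15-/- gave 0 of 4 (1, Acly, at an unadjusted p of 0.0442) and 2 of 6, with medians of -0.15 and -0.25. Over all genes tested, 18.2%, 5.78% and 1.61% were called lower in the same order, with median changes of -0.06, -0.04 and -0.03. The desaturases alone had medians of -1.16, -0.69 and -0.47, and the elongases -0.17, -0.01 and -0.16.

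Array by array, each gene was taken relative to its wildtype mean and the median of the synthesis genes was set against that of the desaturases and elongases. The synthesis median was higher by 0.25, 0.07 and 0.35 in DM and by 0.21, 0.12 and 0.01 in Bmp15-/-, and differed by 0.0044, 0.07 and -0.05 in wildtype. These differences overlapped between the genotypes, and no test was made of them. The desaturases on their own had medians of -1.26, -0.98 and -1.24 in DM, -0.62, -0.77 and -0.68 in Bmp15-/- and -0.09, 0.06 and -0.01 in wildtype, with no overlap.

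Control genes of the pathway showed lower Srebf transcripts in DM. Of 14 tested genes of lipogenic control, 4 fell and 1 was called higher in DM against wildtype, none was called by limma in Bmp15-/- against wildtype, where 3 were lower and 1 higher at an unadjusted p under 0.05, and 1 fell in DM against Bmp15-/-. Of all genes, 28.1%, 9.07% and 3.25% were called in these comparisons, so the counts for DM against wildtype are near that share. Srebf2, which encodes SREBP-2, read 10.29, 10.21 and 9.95 in DM, 10.65, 10.70 and 10.72 in Bmp15-/- and 10.95, 11.25 and 11.06 in wildtype. No genotypes overlapped, and it fell in DM by 0.93 against wildtype (adjusted p = 0.000488) and by 0.54 against Bmp15-/- (adjusted p = 0.0374). Srebf1, which encodes SREBP-1, had 7.50, 7.45 and 6.99 in DM, 7.84, 7.67 and 8.01 in Bmp15-/- and 8.25, 7.84 and 8.39 in wildtype. DM lay below both other groups, which overlapped, and it fell by 0.85 in DM against wildtype (adjusted p = 0.00743).

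Scap, which escorts SREBPs out of the endoplasmic reticulum, fell by 0.85 in DM against wildtype (adjusted p = 0.00480), and Mlx, a partner of the carbohydrate-responsive factor ChREBP, by 0.55 (adjusted p = 0.00699). Mlxipl, which encodes ChREBP, is the gene called higher, with 5.22, 4.98 and 5.23 in DM, 4.83 on each Bmp15-/- array and 4.51, 4.53 and 4.53 in wildtype. It passed the dim filter through the DM arrays alone, so its values are a description. Insig1, which retains SREBPs and is itself a target of theirs, differed by -0.12 in DM (adjusted p = 0.241), and Nr1h3, the receptor LXR-alpha, by -0.21 (adjusted p = 0.149). Insig1 read 12.97, 12.93 and 12.94 in DM, 13.07, 13.15 and 13.18 in Bmp15-/- and 13.08, 13.06 and 13.06 in wildtype. Its DM arrays lay below all others, and like Scd2 and Elovl5 it stood near the top of the array's range.

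**Figure D4:**
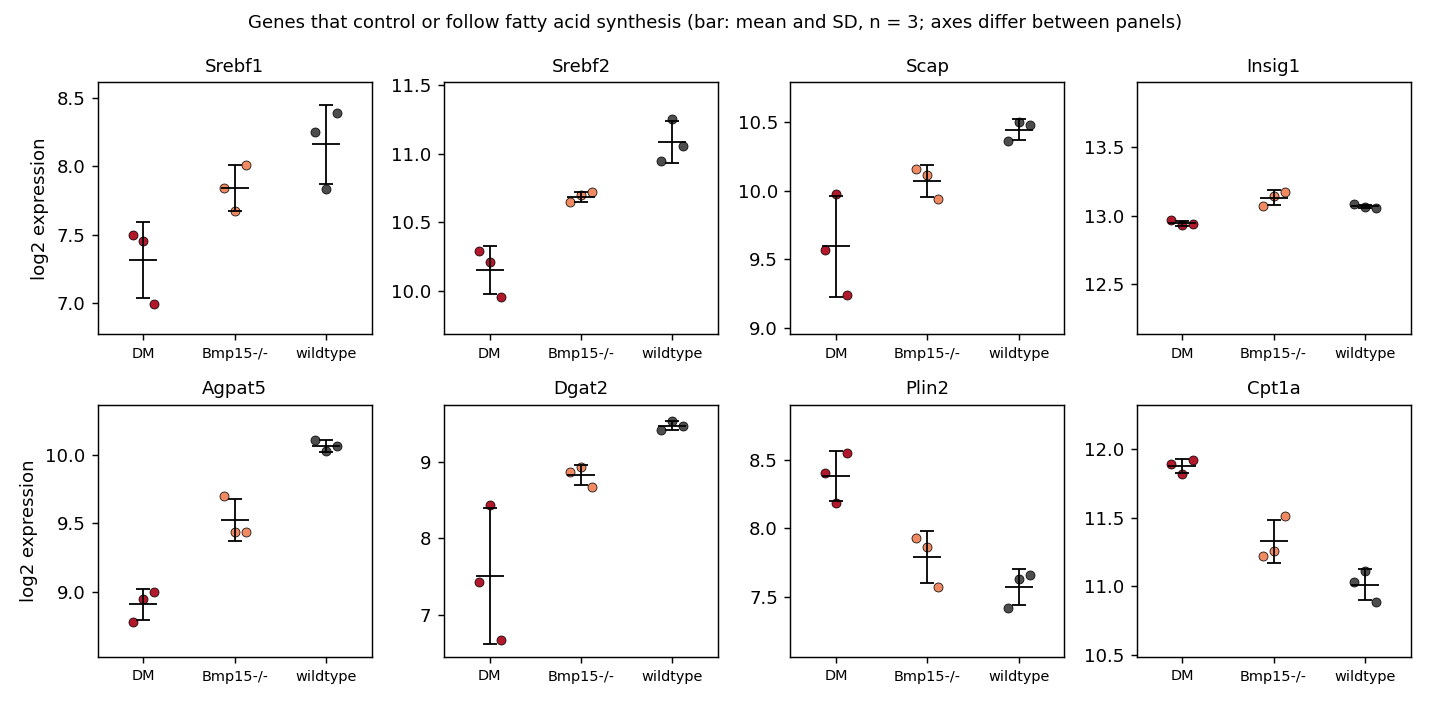
Log2 expression (y axis, a separate scale per panel) of 8 genes that control or follow fatty acid synthesis on the 3 DM, 3 Bmp15-/- and 3 wildtype arrays (x axis); points are arrays, and bars are the mean and SD. Srebf2 and Agpat5 are lowest and Cpt1a is highest in DM, and Insig1 lies between 12.93 and 13.18 on all 9 arrays, with the DM arrays lowest.

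The remaining enzymes of desaturation and elongation went both ways. Of 14 tested, 4 fell and 3 were called higher in DM against wildtype, 1 of them (Hacd4) with no wildtype array above the dim filter's percentile, 2 fell in Bmp15-/- against wildtype and none was called between the mutants, where 3 were lower and 2 higher at an unadjusted p under 0.05. The shares called over all genes were 28.1%, 9.07% and 3.25% in the same order. Hacd1, a dehydratase of the elongation cycle, fell by 1.14 in DM (adjusted p = 0.00102) and 0.80 in Bmp15-/- (adjusted p = 0.0180). Elovl1, an elongase of very long saturated chains, fell by 0.63 in DM (adjusted p = 0.00141) and 0.55 in Bmp15-/- (adjusted p = 0.00918), and Tecr, the reductase that ends each elongation cycle, fell by 0.81 in DM (adjusted p = 0.00154). Elovl2, which lengthens polyunsaturated chains after Elovl5, rose by 1.07 in DM (adjusted p = 0.00973), with 7.34, 7.47 and 8.44 in DM and 6.58, 6.74 and 6.72 in wildtype.

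Of 10 tested genes that supply acetyl-CoA and NADPH or make or use malonyl-CoA, 1 fell and 1 rose in DM against wildtype. In that comparison 28.1% of all genes were called. None of the 10 was called in either other comparison. At an unadjusted p under 0.05 there were 0 in Bmp15-/- against wildtype and 2 each way in DM against Bmp15-/-. Slc25a1, the mitochondrial citrate carrier that feeds Acly, fell by 0.58 in DM (adjusted p = 0.00653), at 6.98, 7.22 and 6.93 in DM and 7.70, 7.76 and 7.41 in wildtype. Acss1, the mitochondrial relative of Acss2, rose by 0.73 (adjusted p = 0.0288) although DM array 2 equalled wildtype array 1, and a dimmer probe set of it was not called (adjusted p = 0.237).

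Among 15 tested genes of acyl-CoA activation, glycerolipid synthesis and lipid droplets, 5 fell and 2 rose in DM against wildtype. In Bmp15-/- against wildtype 1 fell, and in DM against Bmp15-/- 1 was called each way. Over all genes, 28.1%, 9.07% and 3.25% were called in these comparisons. Agpat5, an acyltransferase of phosphatidic acid synthesis, read 8.78, 8.95 and 9.00 in DM, 9.70, 9.44 and 9.44 in Bmp15-/- and 10.11, 10.03 and 10.06 in wildtype. It fell in all 3 comparisons, by 1.16 in DM against wildtype (adjusted p = 0.000104), 0.54 in Bmp15-/- against wildtype (adjusted p = 0.0128) and 0.61 in DM against Bmp15-/- (adjusted p = 0.0148). Dgat2, which makes triacylglycerol, fell by 1.96 in DM (adjusted p = 0.00311), with DM arrays as spread as for Scd1 at 7.43, 8.43 and 6.67 against 9.41, 9.53 and 9.47 in wildtype. Agpat2, another acyltransferase, fell by 0.53 in DM (adjusted p = 0.00866). Plin2, a lipid droplet coat protein, rose by 0.81 in DM against wildtype (adjusted p = 0.00208) and by 0.59 against Bmp15-/- (adjusted p = 0.0440).

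Fatty acid uptake and oxidation went both ways. Of 21 tested genes, 5 rose and 2 fell in DM against wildtype, where 28.1% of all genes were called, with 6 higher and 5 lower at an unadjusted p under 0.05 and a median change of -0.012. In the other comparisons 1 rose in Bmp15-/- against wildtype and 1 rose in DM against Bmp15-/-, where 9.07% and 3.25% of all genes were called. Cpt1a, which admits long chains to mitochondria for oxidation, read 11.90, 11.82 and 11.92 in DM, 11.22, 11.26 and 11.51 in Bmp15-/- and 11.03, 11.11 and 10.89 in wildtype. It rose by 0.87 in DM against wildtype (adjusted p = 0.000421) and by 0.55 against Bmp15-/- (adjusted p = 0.0245), though a dimmer probe set was not called (0.21, adjusted p = 0.258). Fabp3, a cytosolic fatty acid carrier, rose by 1.24 in DM (adjusted p = 0.00235) and 0.91 in Bmp15-/- (adjusted p = 0.0264). The transporters Slc27a1 and Cd36 rose in DM by 0.58 (adjusted p = 0.00281) and 0.85 (adjusted p = 0.0178), and dimmer probe sets of Fabp3 and Slc27a1 were not called. Genes that act in mitochondrial fatty acid oxidation went both ways. Hadha and Etfdh fell in DM by 0.37 (adjusted p = 0.0480) and 0.26 (adjusted p = 0.0469), and Hadhb rose by 0.40 (adjusted p = 0.0412).

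Outside these lists, the 5 genes whose pattern over the 9 arrays was most like that of Scd1 had Pearson correlations of 0.993 to 0.995 with it, over arrays that share the 3 genotypes. They were Stard4, a sterol carrier protein, Gapdh of glycolysis at its 3' control probe set, Arrdc4, an arrestin-like protein, Fdps of the isoprenoid pathway and Ncaph2, a condensin II subunit. Fdps read 8.18, 8.41 and 7.61 in DM, 9.35, 9.41 and 9.47 in Bmp15-/- and 10.24, 10.43 and 10.24 in wildtype. Stard4 had 7.81, 7.84 and 7.21 in DM, 8.88, 8.84 and 8.86 in Bmp15-/- and 9.43, 9.43 and 9.59 in wildtype. In both, as in Scd1, DM array 3 was the lowest array and the genotypes did not overlap. Both genes were chosen by this likeness, so these shared features are no separate result. In DM against wildtype, 1 of 3 tested probe sets of Stard4, 1 of 2 of Arrdc4 and 2 of 4 of Ncaph2 were not called.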

How the data were processed

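Cumulus cell RNA from 9 samples, 3 per genotype, was measured on Affymetrix arrays. The authors deposited log2 expression values per probe set. Per the submitters' processing notes, the tools were RMA and affy, and nothing read here states their versions. Changes of dim and of saturated transcripts can be compressed on such arrays, which was not tested here. The range of the values fits a log2 scale.

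Of 45101 probe sets, 34958 had 1 gene in the platform annotation, 932 several and 9211 none listed. Symbols were updated through a RefSeq table of GRCm38.p6. A gene was given by the brightest of its 1-gene probe sets (highest mean) and tested if at least 3 of 9 arrays exceeded the 40th percentile of their own array, which left 13447 of 18194 genes. Genotype was the only term of 1 fit over all 9 arrays with limma 3.58.1 (lmFit, eBayes) in R 4.3.3, with 6 residual degrees of freedom. P-values are 2-sided, with Benjamini-Hochberg adjustment over all genes tested, and intervals are 95%. A second fit covered 27991 probe sets with the same filter. The p-values measure the spread between pools of mice.

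The members and lists were chosen with earlier results of these data known. Named besides the 10 genes are, from each of 5 pathway lists, up to 4 called genes with the smallest p in DM against wildtype, Srebf1, Srebf2, Insig1, Nr1h3 and Mlxipl, the 5 genes most like Scd1, and the targeted genes. Marker genes, Hacd4, Hadha, Hadhb and Etfdh were named after their values were seen. In simulated data for DM against wildtype over 13447 genes, with 200 changed in each of 5 runs, 52.2% of 1.5-fold, 84.2% of 2-fold and 98.8% of 4-fold changes were recovered, and 4.04% of calls were false. The simulated noise was independent between genes and equally spread in all groups. In the data 3780 genes were called and the spread differed between groups for some members, so these rates may not hold there. Alternatives covered the filter, the probe set choice, normalization, moderation, a pairwise fit, a replicate block and each array left out, run for the members and not for the pathway lists, and leaving out probe sets that can cross-hybridise was added after seeing the data. The number of arrays limits the precision.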

Additional observations from a re-analysis of the deposited data

How the results depend on the processing

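Of 540 values for single members under alternatives, 496 kept direction and side of the threshold, 31 lost a call, 5 gained one and 8 turned direction, and the cause was not tested. With 1 array left out in turn, members called ranged over 1 to 4 (Bmp15-/- against wildtype), 4 to 6 (DM against wildtype) and 0 to 2 (DM against Bmp15-/-), their probe sets over 2 to 8, 11 to 13 and 0 to 3, all genes over 444 to 1653, 2630 to 4147 and 108 to 924, and the synthesis minus desaturase and elongase median over 0.05 to 0.15, 0.15 to 0.29 and 0.09 to 0.21. That quantity is the mean over arrays of 1 group minus that of the other, with each gene taken relative to the mean of the second-named group, which is Bmp15-/- and not wildtype in DM against Bmp15-/-. At 0.10 in Bmp15-/- against wildtype and 0.15 in DM against Bmp15-/-, it became 0.28 with the mean of probe sets in Bmp15-/- against wildtype, and 0.19 and 0.24 with the probe set of largest variance. In Bmp15-/- against wildtype, quantile normalization called 3 member probe sets, trend and robust moderation 10, and the pairwise fit 1894 genes; in DM against Bmp15-/- the pairwise fit called 1 member, 117 genes and 0 member probe sets. The replicate block called 2 members in Bmp15-/- against wildtype, losing Scd1 (adjusted p = 0.0555) and Fads1 (0.0542), and 1084, 3587 and 360 genes in the 3 comparisons. Same-numbered arrays deviated together at r between -0.08 and 0.26, over 0.1 in 2 of 9 pairs. Such correlations cannot show whether these arrays share a day or batch, and their labels give only a number. Quantile normalization turned no member's direction, though 47.0% of calls were then lower in Bmp15-/- against wildtype, not 63.7%, and 51.6% in DM against wildtype, not 64.6%. In DM against Bmp15-/-, differences near 0 turned for Fads1 to 0.10 and 0.40 and for Elovl5 to 0.022 and 0.057 (mean of probe sets, largest variance), for Acaca to -0.08 (without Bmp15-/- array 2) and -0.10 (without DM array 2; range -0.10 to 0.16) and for Scd2 to 0.012 (without DM array 1; range -0.054 to 0.012). Elovl6 in Bmp15-/- against wildtype turned to -0.010 without Bmp15-/- array 3 (range -0.010 to 0.092). With the probe set of largest variance Scd2 fell by 1.07 in DM and 0.64 in Bmp15-/- (adjusted p = 0.00197 and 0.0471), and Fads1 was not called in DM (adjusted p = 0.759).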
